A study of Mus musculus with 4 samples.

Results

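The collagen genes of the mouse nasal mucosa were followed with age, chain by chain and by structural class. A gene was taken as a collagen if its symbol consists of Col, a type number, the letter a and a chain number, with symbols assigned to the array probes through their transcript accessions. This rule gave 44 genes of the 45616 genes tested, belonging to 27 collagen types and measured by 67 probes. Of these, 36 genes fell into the 5 classes of fibrillar, basement membrane, FACIT, beaded and transmembrane collagens, and the other 8 were short-chain network, multiplexin, anchoring fibril and unclassed chains.

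Collagens are the main structural proteins of connective tissue. Each molecule is a helix wound from chains that are encoded by separate genes, so that a type can be built from a single gene product or need several. Fibrillar collagens form the load-bearing cables of the lamina propria, bone and cartilage. FACIT collagens sit on the surface of these fibrils, beaded type VI collagen forms fine filaments around cells, and type IV collagen is the sheet-forming network of basement membranes under epithelia and around vessels, nerves and muscle. Transmembrane collagens are anchored in the cell surface. In the nose, collagens lie in the lamina propria below the olfactory epithelium and in the bone and cartilage of the septum.

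Nasal mucosa RNA of C57BL/6J mice was hybridized to 4 one-color arrays made by Agilent. That strain name is the one on the sample labels, and the study's methods give C57BL/6. The young adult group was 8 weeks old by its labels and the aged group 16 months old, with 2 arrays for each age, and the study's methods state that the mice were male. Each array carried RNA pooled from 5 mice, so that the spread between 2 arrays of an age is that between pools and not between animals. The mice that the methods set aside for gene analyses are too few per age to fill 2 pools of 5 without overlap, the sources do not say whether pools shared animals, and P values then measure only the spread between these samples, which may be technical.

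In 2 respects, what is stated of the samples was in conflict with the array values or with other labels. *Xist*, the RNA that silences an X chromosome in female cells, had a normalized intensity of 645 and 612 on the young adult arrays and of 644 and 637 on the aged arrays, while 4 of 4 genes of the Y chromosome (*Ddx3y*, *Eif2s3y*, *Kdm5d* and *Uty*) did not stand well above background on any array. This held for all 4 arrays, so the comparison could not be repeated without the arrays concerned. The samples also carry a description that names lung cells after silica aspiration, unlike their titles. Of the olfactory neuron markers, *Omp* was at 300826 and 286061 on the young adult arrays and at 317836 and 332591 on the aged arrays. Among 6 markers of lung alveolar epithelium, *Sftpb* and *Sftpa1* did not stand well above background on any array. The other 4 did on at least 3 arrays, and of these *Sftpc* was at 370.3 and 349 on the young adult arrays and at 205 and 220.5 on the aged arrays.

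Of all spots, 68.1% and 76.8% stood well above background in the young adult pools, and 63.1% and 72.7% did so in the aged pools. No spot was saturated. At least 1 probe was well above background on every array for 38 of the 44 collagens. *Col4a3* and *Col6a6* did not stand well above background on any array, and *Col4a4*, *Col15a1* and *Col19a1* on no aged array. *Col6a5* did not stand well above background on aged array 1. The first array of each age shared a slide, and the other arrays had slides of their own. With 2 arrays against 2, the lowest two-sided P that exact permutation can reach for any gene is 0.333, and calls rest on the moderated spread of limma.

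A gene was called when its P was below 0.05 and its FDR below 0.25 over all genes tested, the significance limits of the study. In the counts below, a gene that fell was called lower and a gene that rose was called higher. Genes not counted so may still have estimates on either side of 0. With all 4 arrays and these limits, 19 of the 44 collagens (43.2%) were lower in aged mice, against 2.33% of all genes tested, and 0 were higher, against 1.65% of all genes. To identify differentially expressed genes, the study's methods add limits on mean expression and fold change. With these added, 14 collagens were lower and 0 higher, against 524 lower and 371 higher of all 45616 genes tested. The count of 19 depended on the processing. It became 29 lower and 1 higher with a normexp offset of 50 (5.43% of all genes lower and 4.62% higher). With an intensity trend it was also 29 lower and 1 higher (7.71% and 7.91% of all genes). With a filter for probes well above background, 32 of 39 were lower and 2 higher (12.6% and 11.7% of all genes). That filter also kept probes that passed on the young adult arrays alone, so its counts are given as description only. With the replicate number as a block the count was 0. At the P limit alone, limma counted 28 collagens lower, against 7.09% of all genes, and 1 higher, against 6.05%. In 33 collagens the aged arrays were both lower than either young adult array, and in 2 both were higher, which was the case for 21.8% and 24.2% of all genes. The median log2 fold change of the collagens was -0.48 and that of all genes was 0.01. Without any 1 of the 4 arrays, limma called 0 collagens. Their median log2 fold change then lay between -0.59 and -0.44, against -0.01 to 0.02 for all genes. The calls were made at a lenient limit, since the FDR of the called collagens ran from 0.168 to 0.249. In a bulk sample, fewer cells of a type and less RNA per cell cannot be told apart.

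**Figure D1:**
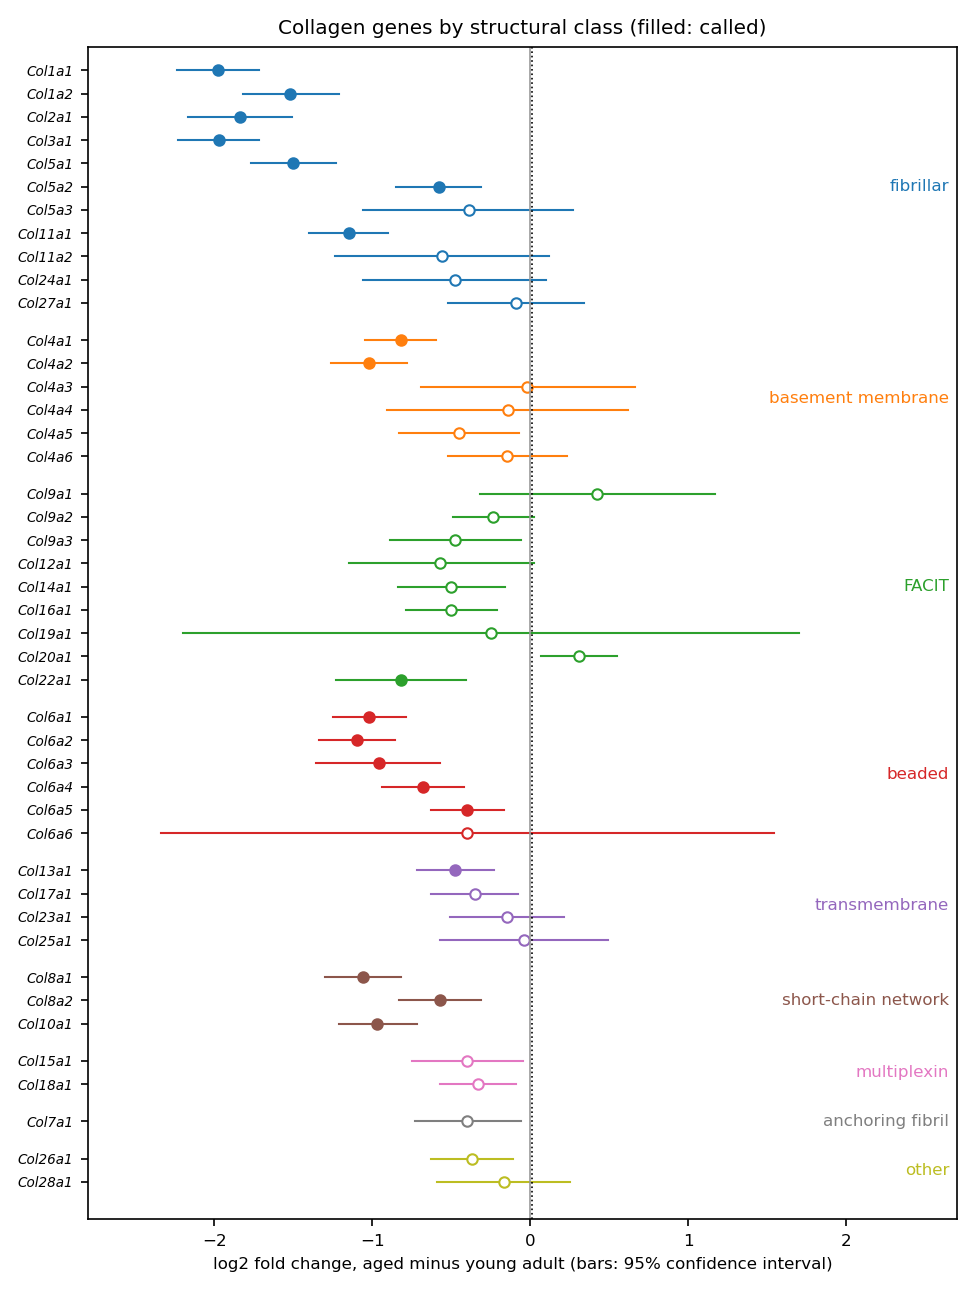
Log2 fold change of each of the 44 collagen genes, aged minus young adult, on the horizontal axis, grouped by structural class; points are limma estimates from 2 arrays per age, bars their 95% confidence intervals, and filled points the called genes. The 5 largest falls, from -1.98 to -1.50, all belonged to fibrillar chains, and the dotted line marks the median of all genes tested.

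The fibrillar collagens had a median log2 fold change of -1.15 over 11 genes, of which 7 fell. Type I collagen, the most abundant protein of bone and of the lamina propria, is built from the chains of *Col1a1* and *Col1a2*. *Col1a1* was at 39301 and 37401 on the young adult arrays and at 9407 and 10079 on the aged arrays. Its partner *Col1a2* was at 99626 and 90141 on the young adult arrays and at 34475 and 31828 on the aged arrays. For both chains the aged arrays lay far below the young adult arrays and the arrays of an age lay close together. The fall was 3.94-fold for *Col1a1* (log2 fold change -1.98, 95% confidence interval -2.24 to -1.72, FDR = 0.168 by limma) and 2.86-fold for *Col1a2* (-1.52, -1.82 to -1.21, FDR = 0.178). The 2 probes of *Col1a1*, each spotted 10 times, gave log2 fold changes of -1.94 and -2.01.

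Type III collagen forms thin fibrils with type I in distensible tissues, and its only chain is that of *Col3a1*. This gene was at 14036 and 13472 on the young adult arrays and at 3618 and 3394 on the aged arrays, a log2 fold change of -1.97 (95% confidence interval -2.23 to -1.72, FDR = 0.168 by limma). *Col2a1* encodes type II collagen, the fibril of cartilage, and was at 1015 and 949 on the young adult arrays and at 257 and 293 on the aged arrays. It fell 3.58-fold (log2 fold change -1.84, -2.17 to -1.51, FDR = 0.168). The groups did not overlap for either gene.

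Types V and XI are minor fibrillar collagens that start and limit fibril growth, type V with type I and type XI with type II. *Col5a1* was at 3258 and 2990.1 on the young adult arrays and at 1077 and 1129.9 on the aged arrays, with a log2 fold change of -1.50 (95% confidence interval -1.77 to -1.23, FDR = 0.168 by limma). *Col5a2* was at 494 and 492 on the young adult arrays and at 315 and 347 on the aged arrays, with a log2 fold change of -0.58 (-0.85 to -0.31, FDR = 0.219), a call that limits on mean expression and fold change removed. *Col5a3* was not called. It was at 154 and 117 on the young adult arrays and at 89.5 and 117 on the aged arrays, so that the ages met at their nearest arrays (log2 fold change -0.39, FDR = 0.552, and -0.59 to -0.20 with an array dropped). Its dimmer probe was not well above background on any array. The brighter was at 566 and 545 on the young adult arrays and at 417 and 477 on the aged arrays, and with only probes well above background *Col5a3* was called lower. *Col5a1* and *Col5a2* thus had confidence intervals that did not overlap, although the difference between the chains itself was not tested.

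In type XI, *Col11a1* was at 720.0 and 669 on the young adult arrays and at 312 on both aged arrays, a log2 fold change of -1.15 (95% confidence interval -1.40 to -0.90, FDR = 0.178 by limma). *Col11a2* was at 124 and 176 on the young adult arrays and at 92.4 and 108 on the aged arrays and was not called (-0.56, FDR = 0.442, and -0.82 to -0.31 with an array dropped). The probes of *Col11a2* differed: the brighter had a log2 fold change of -0.88 and was well above background on all 4 arrays, and the dimmer had one of -0.24 and was well above background on 2 arrays. Under 4 alternatives, among them the brightest probe alone, *Col11a2* was called lower. The 2 remaining fibrillar chains had log2 fold changes from -0.48 to -0.09, with 0 called and 0 lower at the P limit alone by limma. Of these, *Col24a1* was called lower under 1 alternative.

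**Figure D2:**
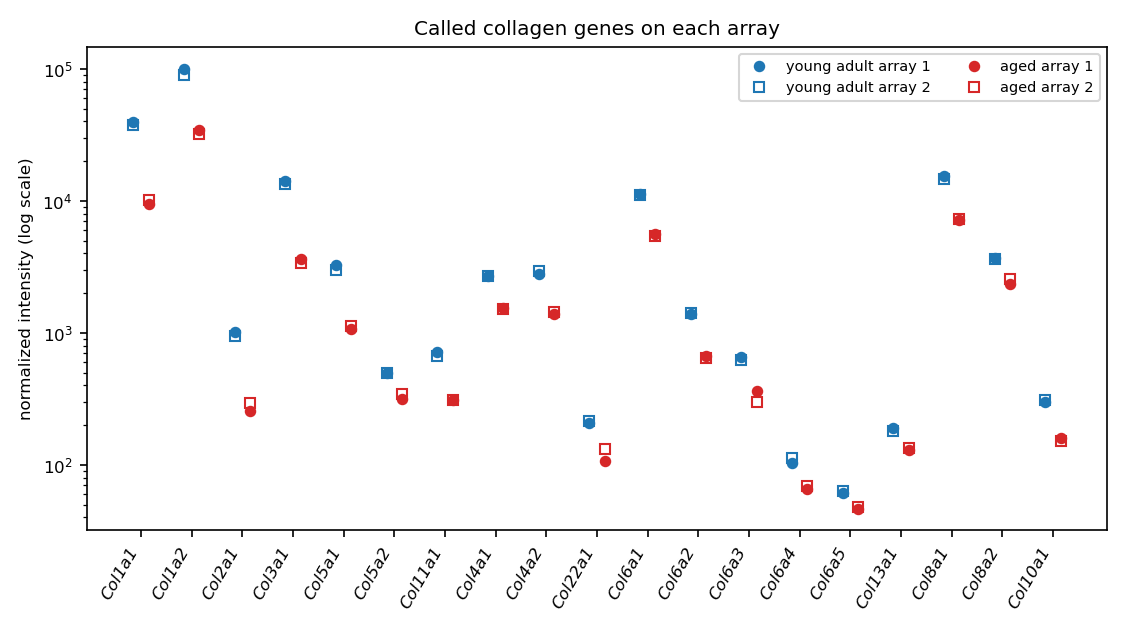
Normalized intensity (vertical axis, log scale) of the 19 called collagens on each of the 4 arrays, with blue for young adult and red for aged pools, circles for array 1 and squares for array 2. For each of the 19 genes, which were called on these same arrays, both aged points lie below both young adult points.

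The start regions of the 3 fibrillar chains with the largest falls among those in the promoter table (*Col3a1*, *Col1a2* and *Col5a1*) are shown because the chains fell together, although they differ in sequence. Each is the 250 bases before the RefSeq start on the plus strand of build GRCm38.p6, at chr1:45311288-45311537, chr6:4505368-4505617 and chr2:27886175-27886424. Capitals mark a CCAAT box (CCAAT), a GC box (GGGCGG) or a TATA box (TATAAA) on either strand.
*Col3a1*: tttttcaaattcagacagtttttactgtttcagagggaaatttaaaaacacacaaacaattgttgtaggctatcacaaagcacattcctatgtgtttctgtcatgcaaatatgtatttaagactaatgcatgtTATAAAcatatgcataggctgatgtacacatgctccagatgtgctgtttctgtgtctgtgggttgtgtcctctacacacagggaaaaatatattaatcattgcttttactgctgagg
*Col1a2*: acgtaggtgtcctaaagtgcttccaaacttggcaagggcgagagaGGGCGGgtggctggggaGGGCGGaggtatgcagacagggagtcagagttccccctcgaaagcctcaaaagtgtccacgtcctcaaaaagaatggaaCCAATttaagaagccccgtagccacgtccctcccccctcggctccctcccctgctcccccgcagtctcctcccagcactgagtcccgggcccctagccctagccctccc
*Col5a1*: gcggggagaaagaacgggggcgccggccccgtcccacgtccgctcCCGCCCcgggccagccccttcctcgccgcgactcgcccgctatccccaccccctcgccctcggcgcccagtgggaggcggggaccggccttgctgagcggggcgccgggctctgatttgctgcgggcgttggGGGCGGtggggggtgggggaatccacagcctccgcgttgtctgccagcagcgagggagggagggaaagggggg

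*Col3a1* held a TATAAA, whose first base was 117 bases before the start, and neither of the other motifs. *Col1a2* held a CCAAT at 109 bases and a GGGCGG at 205 and at 188 bases before the start, and *Col5a1* held 2 GC boxes at 205 and 73 bases. None of these matches overlapped another. Windows of 300 bases, of which the 250 before the start were searched, were given for 35 of the 44 collagens, some with several starts, making 38 collagen windows of 32851 in all. The windows of *Col4a1* and *Col4a2* shared 78 bases, so not all collagen windows are separate sequences. No window was given for *Col1a1*, *Col2a1*, *Col5a2*, *Col4a3*, *Col9a3*, *Col12a1*, *Col14a1*, *Col22a1* and *Col26a1*. The CCAAT was present in 34.2% of collagen windows and 33.8% of all windows, and the TATAAA in 13.2% and 12.4%. The GGGCGG was present in 57.9% of collagen windows and 32.7% of all windows. Of the windows of called collagens, 10 of 16 held it, as did 12 of 22 windows of the uncalled ones. A match describes the letters only, and no binding was measured.

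Neighbouring genes were also compared, by their order among protein-coding genes in the RefSeq table of GRCm38.p6. There, 8 pairs of adjacent genes were both collagens. *Col4a1* and *Col4a2* had log2 fold changes of -0.82 and -1.02, and *Col6a1* and *Col6a2* had ones of -1.02 and -1.10. By contrast, *Col3a1* and *Col5a2* lie next to each other and had log2 fold changes of -1.97 and -0.58. In 3 pairs no gene was called, namely *Col9a1* and *Col19a1*, *Col4a3* and *Col4a4*, and *Col4a5* and *Col4a6*.

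Of the FACIT collagens, 1 of 9 genes fell, with a median log2 fold change of -0.48 for the class. The called gene was *Col22a1*, whose product marks tissue junctions such as that of muscle and tendon. It was at 206 and 213 on the young adult arrays and at 107 and 132 on the aged arrays, a log2 fold change of -0.82 (95% confidence interval -1.23 to -0.41, FDR = 0.229 by limma). Its 2 probes disagreed more than those of any other collagen. The brighter, at 687 and 724 on the young adult arrays and at 225 and 277 on the aged arrays, had a log2 fold change of -1.50, whereas the dimmer, which was well above background on 1 aged array, had one of -0.14. Besides the settings that removed every collagen call, the scanner software's processed signal with 75th percentile scaling removed the call of *Col22a1*, at a log2 fold change of -0.98.

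The other 8 FACIT genes had log2 fold changes from -0.57 to 0.42, with 0 called and, at the P limit alone by limma, 3 lower and 1 higher. The genes named from these were singled out after their values had been seen. *Col16a1* missed the FDR limit narrowly (-0.50, FDR = 0.252 by limma) and was called lower under 8 of the 18 alternatives with a test. Other uncalled FACIT chains were called lower under some alternatives too, *Col9a3* and *Col14a1* under 5, *Col12a1* under 4 and *Col9a2* under 3. Only *Col9a1* and *Col20a1* among the 44 collagens had higher estimates in aged mice. *Col9a1*, a chain of the type IX collagen that coats type II fibrils, was at 262 and 295 on the young adult arrays and at 459 and 303 on the aged arrays, with a log2 fold change of 0.42 (FDR = 0.569) that ran from 0.12 without aged array 1 to 0.71 without aged array 2. Its brighter probe was at 1766 and 1607 on the young adult arrays and at 2351 and 2471 on the aged arrays, a log2 fold change of 0.52, and its dimmer probe was well above background on 1 array of 4. With the brightest probe per gene, or with only the probes well above background, *Col9a1* was called higher.

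*Col20a1*, which encodes a FACIT chain, was at 409 and 388 on the young adult arrays and at 486 and 503 on the aged arrays. Its log2 fold change of 0.31 did not pass the FDR limit (FDR = 0.312 by limma) but did so under 4 alternatives, and stayed between 0.27 and 0.35 whichever array was dropped.

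All measured chains of beaded type VI collagen but *Col6a6* fell, 5 of 6 genes with a median log2 fold change of -0.82. This collagen links cells to the surrounding matrix and is built from the *Col6a1* and *Col6a2* chains with a further chain, usually that of *Col6a3*. *Col6a1* was at 11289 and 11071 on the young adult arrays and at 5619 and 5402 on the aged arrays. *Col6a2* was at 1390.4 and 1417 on the young adult arrays and at 671 and 639.6 on the aged arrays. *Col6a3* was at 661 and 625 on the young adult arrays and at 363 and 300.2 on the aged arrays. The 3 chains fell, with log2 fold changes of -1.02 (95% confidence interval -1.25 to -0.79, FDR = 0.178 by limma), -1.10 (-1.34 to -0.86, FDR = 0.178) and -0.96 (-1.36 to -0.57, FDR = 0.206), and the intervals overlapped, although differences between the chains were not tested.

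The alternative chains *Col6a4* and *Col6a5* were nearer to background. *Col6a4* was at 104 and 112 on the young adult arrays and at 66.1 and 68.6 on the aged arrays (log2 fold change -0.68, FDR = 0.201 by limma). *Col6a5* was at 61.3 and 63.2 on the young adult arrays and at 46.7 and 47.6 on the aged arrays (-0.40, FDR = 0.249). In both, the dimmer of 2 probes was not well above background on any array. The brighter probe of *Col6a5* was not well above background on aged array 1, so its call rests in part on an undetected value. *Col6a5* passed the FDR limit by a narrow margin and lost its call with 75th percentile scaling (log2 fold change -0.38), with cyclic loess (-0.39), with an intensity trend in the spread (-0.40) and with quantile normalization of the scanner software's processed signal (-0.79). *Col6a4* lost its call with that signal and 75th percentile scaling (-0.65), and *Col6a3* with 75th percentile scaling of the median signal (-0.96). Limits on mean expression and fold change removed *Col6a4* and *Col6a5*. *Col6a6* was highest on young adult array 1 and at 16.7 on young adult array 2, with 18.0 and 26.8 on the aged arrays, and it was not well above background on any of them (FDR = 0.824).

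In the basement membrane class 2 of 6 genes fell, with a median log2 fold change of -0.30 that was -0.67 with the quantile-normalized processed signal, -0.55 with that signal and 75th percentile scaling and -0.64 with only the probes well above background. The chains of *Col4a1* and *Col4a2* build the type IV network that is present in nearly all basement membranes, and both fell. *Col4a1* was at 2705 and 2683 on the young adult arrays and at 1538 and 1505 on the aged arrays, a log2 fold change of -0.82 (95% confidence interval -1.05 to -0.60, FDR = 0.178 by limma). *Col4a2* was at 2787 and 2927 on the young adult arrays and at 1388 and 1429 on the aged arrays, a log2 fold change of -1.02 (-1.26 to -0.78, FDR = 0.178). The arrays of an age lay close together and the ages were apart for both chains.

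The other 4 chains of type IV collagen occur in specialised basement membranes, among them those of kidney, lung and smooth muscle, and none was called. *Col4a5* was at 264 and 228 on the young adult arrays and at 189.9 and 169 on the aged arrays (log2 fold change -0.45, FDR = 0.330 by limma). Its brighter probe had a log2 fold change of -0.74 and its dimmer one of -0.16, and it was called lower under 6 alternatives. *Col4a6* was at 381 and 419 on the young adult arrays and at 390.2 and 334 on the aged arrays, which overlapped (-0.15, FDR = 0.674), and within the shared slide its difference was 0.04. *Col4a3*, at 26.9 and 27.9 on the young adult arrays and at 22.3 and 32.7 on the aged arrays, was not well above background on any array. *Col4a4* was at 36.1 and 43.1 on the young adult arrays, of which only the second was well above background, and at 29.1 and 43.7 on the aged arrays. *Col4a4* was not well above background on either aged array, and its arrays overlapped (FDR = 0.840).

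Transmembrane collagens had a median log2 fold change of -0.25 over 4 genes, with 1 called. *Col13a1*, which is found at the neuromuscular junction and other sites of cell adhesion, was at 189 and 179 on the young adult arrays and at 129 and 135 on the aged arrays, a log2 fold change of -0.48 (95% confidence interval -0.72 to -0.23, FDR = 0.236 by limma). Its dimmer probe was not well above background on either aged array. Scaling to the 75th percentile removed this call (-0.46), as did limits on mean expression and fold change. The other 3 transmembrane chains had log2 fold changes from -0.35 to -0.04, with 0 called and 1 lower at the P limit alone by limma. Of these, *Col17a1* was called lower under 4 alternatives.

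The short-chain network collagens, outside the 5 classes, all fell. *Col8a1* and *Col8a2* encode type VIII collagen, which forms lattices below endothelium, and *Col10a1* encodes type X collagen, the marker of hypertrophic cartilage. *Col8a1* was at 15492 and 14686 on the young adult arrays and at 7199 and 7290.1 on the aged arrays, a log2 fold change of -1.06 (95% confidence interval -1.30 to -0.82, FDR = 0.178 by limma). *Col8a2* was at 3679.9 and 3599.8 on the young adult arrays and at 2357 and 2548 on the aged arrays (-0.57, -0.83 to -0.31, FDR = 0.213). *Col10a1* was at 299 and 308 on the young adult arrays and at 159 and 151 on the aged arrays (-0.97, -1.21 to -0.72, FDR = 0.178). The confidence intervals of the type VIII chains overlapped only at their ends, and the difference between the chains was not tested. Limits on mean expression and fold change removed the call of *Col8a2*.

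No multiplexin, anchoring fibril or unclassed collagen was called. *Col18a1*, a heparan sulfate-bearing chain of basement membranes, was at 4094 and 4224 on the young adult arrays and at 3234 and 3379.9 on the aged arrays (log2 fold change -0.33, FDR = 0.292 by limma). *Col7a1* forms the anchoring fibrils below stratified epithelia and was at 7180.4 and 7310.5 on the young adult arrays and at 5102 and 5941 on the aged arrays (-0.40, FDR = 0.331). For both genes the aged arrays were lower without overlap, and each was called lower under 5 alternatives.

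*Col26a1* was at 235 and 243 on the young adult arrays and at 193 and 178 on the aged arrays (log2 fold change -0.37, FDR = 0.291 by limma), also without overlap, and was called lower under 4 alternatives. *Col28a1* was at 94.3 and 86.6 on the young adult arrays and at 72.8 and 88.6 on the aged arrays (-0.17, FDR = 0.661), which overlapped. *Col15a1*, the other multiplexin, was at 46.1 and 39.1 on the young adult arrays and at 31.7 and 32.6 on the aged arrays. It was not well above background on either aged array or on young adult array 1, so no size is given for its change (FDR = 0.342), and it was called lower under 1 alternative.

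Calls were also counted by mean level. Of the 13 collagens with a mean level of at least 1000, 10 were called lower, against 3.01% of all genes at that level. Of the 31 collagens under that level, 9 were called lower, against 2.13% of all genes under it. The difference between these groups of collagens was not tested, and intensities of different probes do not rank genes by RNA amount. Across the 44 collagens the correlation of the log2 mean level with the log2 fold change was -0.59 and that across all genes was -0.00, a description over genes that share arrays and are not replicates. The 47 collagen probes that were well above background on all 4 arrays had a median log2 fold change of -0.57, and the other 20 had one of -0.28. Of the 22 collagens with more than 1 probe, 17 had the largest change in the brightest probe, and 3 had probes of opposite sign (*Col19a1*, *Col23a1* and *Col25a1*).

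**Figure D3:**
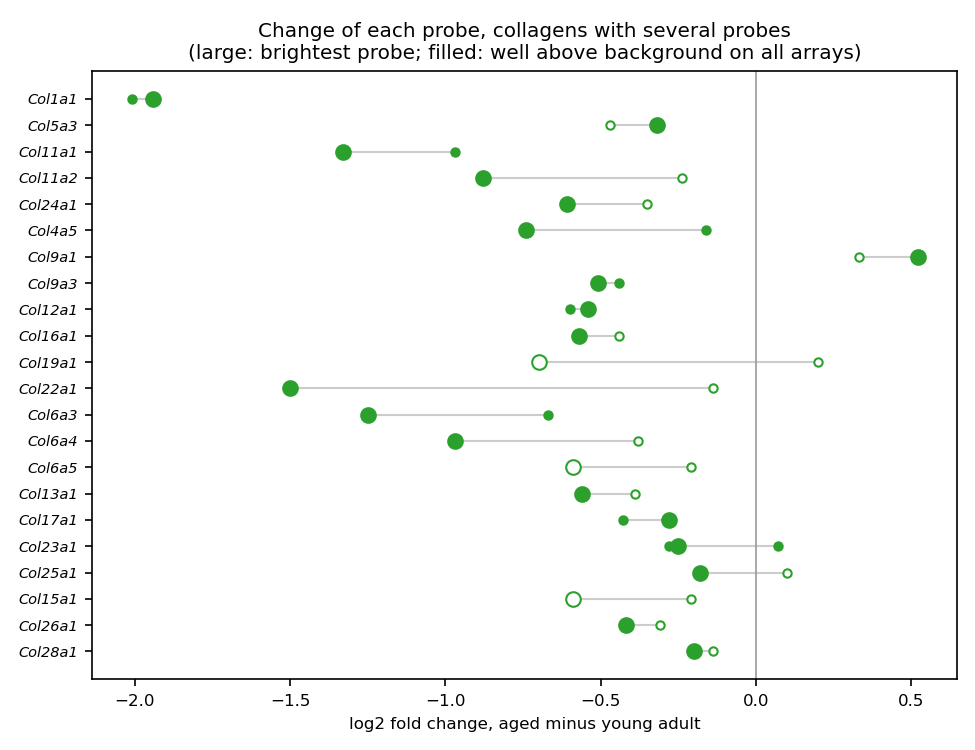
Log2 fold change, aged minus young adult, of each probe of the 22 collagens with more than 1 probe; the large point is the brightest probe of a gene, and filled points were well above background on all 4 arrays. The probes of *Col22a1* lie farthest apart, at -1.50 and -0.14, and those of *Col1a1* lie together at -1.94 and -2.01.

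Young adult array 1 and aged array 1 could be compared without a difference between slides. Within their slide, 41 of the 44 collagens were lower on the aged array, as were 23181 of all 45616 genes. The median difference of the collagens was -0.61 on the log2 scale, against -0.01 for all genes. Between the other 2 arrays, on separate slides, 37 collagens were lower, as were 21426 of all genes. The medians were -0.41 for the collagens and 0.02 for all genes. All 19 called collagens were lower in both comparisons, with medians of -1.01 within the shared slide and -1.03 between the other arrays. They were called on these same arrays, so their agreement was largely set by the selection and is no separate support. The differences within the shared slide were -2.06 for *Col1a1*, -1.53 for *Col1a2*, -1.21 for *Col11a1*, -0.81 for *Col4a1* and -1.05 for *Col6a2*. Between the other arrays they were -1.89, -1.50, -1.10, -0.83 and -1.15 in the same order. These are values from 1 array of each age and carry no test.

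**Figure D4:**
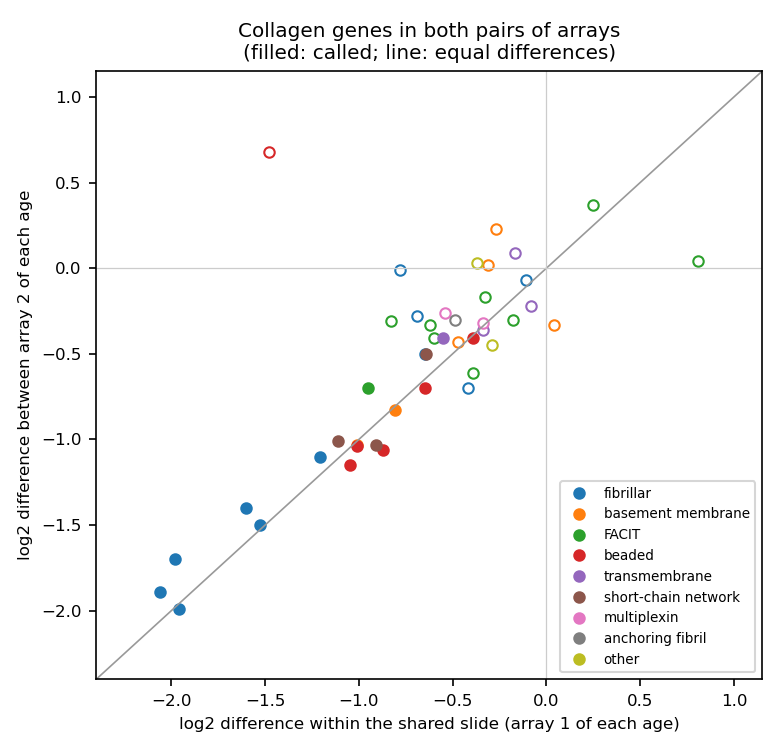
Log2 difference between an aged and a young adult array for each of the 44 collagens, within the shared slide (horizontal axis) and between the other 2 arrays (vertical axis); filled points are called genes and the line marks equal differences. The 19 called genes, which were called on these same arrays, lie below 0 on both axes, with medians of -1.01 and -1.03. The point farthest from the line is *Col6a6*, which was not well above background on any array.

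The calls needed all 4 arrays, since with any of them dropped limma called 0 genes of any kind. Over these fits the log2 fold change lay between -2.03 and -1.94 for *Col1a1*, between -2.02 and -1.93 for *Col3a1*, between -1.05 and -0.99 for *Col6a1*, between -0.84 and -0.81 for *Col4a1* and between -1.09 and -1.02 for *Col8a1*. The ranges were wider for *Col6a3* (-1.11 to -0.82) and *Col22a1* (-0.96 to -0.68), and widest for *Col6a6* and *Col19a1*, whose levels were near background.

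The genes that fold, cut, crosslink, bind and degrade collagen and those of other basement membrane proteins were read from the same fit. Of these 63 genes 17 fell and 0 were called higher, where 2.33% of all genes tested were called lower and 1.65% higher. Of 17 genes of collagen folding and modification, 2 fell, with a median log2 fold change of -0.23. *Serpinh1*, the chaperone that collagen chains need in the endoplasmic reticulum, was at 3899.9 and 4242 on the young adult arrays and at 2398 and 2489 on the aged arrays (log2 fold change -0.74, FDR = 0.196 by limma). *Ppib*, a prolyl isomerase and the gene of this list with the highest intensity, had a log2 fold change of -0.32 (FDR = 0.325). Of 13 genes of procollagen cleavage and crosslinking, 3 fell, with a median of -0.49. Among them, *Loxl2*, a crosslinking oxidase, was at 1241 and 1285 on the young adult arrays and at 628 and 633 on the aged arrays (95% confidence interval of the log2 fold change -1.23 to -0.78, FDR = 0.178), and *Pcolce*, an enhancer of procollagen cleavage, had a log2 fold change of -0.58 (FDR = 0.210).

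Of 10 collagen receptors, 2 fell, with a median log2 fold change of -0.23. *Itga11*, the integrin chain of fibroblasts that binds fibrillar collagen, was at 2512 and 2458 on the young adult arrays and at 1217 and 1301 on the aged arrays (-0.98, FDR = 0.178 by limma). The receptor kinase *Ddr1* had a log2 fold change of -0.20 (FDR = 0.454). Of 7 collagen-degrading enzymes 5 fell, with a median of -0.95. The largest fall was that of *Ctsk*, the collagenase of osteoclasts, from 13257 and 12951 on the young adult arrays to 5023 and 5177 on the aged arrays (-1.36, FDR = 0.168). Of 16 other basement membrane proteins, 5 fell, with a median of -0.30. *Hspg2*, which encodes perlecan, had a log2 fold change of -0.76 (FDR = 0.201), and *Lama5*, a laminin chain, one of -0.04 (FDR = 0.887).

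Markers of cell types that make collagen or lie beside it were read as well, and their part in the collagen changes was not tested. The summed levels given for them add intensities of different probes. They are weighted to the genes with the highest intensity and do not measure the content of a cell type. With the markers of olfactory neurons and lung included, 25 of 67 were called lower and 1 higher, against 2.33% and 1.65% of all genes tested. Osteoblast markers fell in 6 of 9 genes (median log2 fold change -0.87), and their summed level was 31511 and 29260.0 in the young adult pools and 15928 and 15183 in the aged pools. *Bglap2*, the osteoblast marker with the highest intensity, had a log2 fold change of -0.97 (FDR = 0.185 by limma), and *Ibsp*, with the largest fall, one of -1.09 (FDR = 0.187). Fibroblast markers fell in 3 of 8 genes (median -0.34), with sums of 104025 and 91278 in the young adult pools and 84443 and 79040.3 in the aged pools. *Dcn*, with the highest intensity among them, was not called (-0.19, FDR = 0.628), whereas *Dpt* had a log2 fold change of -1.24 (FDR = 0.221). Cartilage markers fell in 2 of 9 genes (median -0.35), with sums of 4016 and 3905 in the young adult pools and 3031 and 3030.3 in the aged pools. Of these, *Comp*, with the highest intensity, was not called (-0.35, FDR = 0.283), and *Acan* had a log2 fold change of -1.30 (FDR = 0.208). *Acan* was not well above background on aged array 1. *Ucma*, the other called cartilage marker, was not well above background on either aged array. *Matn1* and *Matn3* did not stand well above background on any array.

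Endothelial markers fell in 4 of 7 genes (median log2 fold change -0.49), with summed levels of 15186 and 14915 in the young adult pools and 10391 and 10211 in the aged pools. *Cldn5*, with the highest intensity, had a log2 fold change of -0.46 (FDR = 0.246 by limma), and *Emcn* had one of -0.78 (FDR = 0.184). Smooth muscle and pericyte markers fell in 3 of 7 genes (median -0.22), with sums of 31349 and 31359 in the young adult pools and 30112 and 29972 in the aged pools. *Rgs5*, with the highest intensity, was not called (0.17, FDR = 0.457), and *Kcnj8* had a log2 fold change of -0.95 (FDR = 0.184). Schwann and ensheathing cell markers fell in 4 of 8 genes (median -0.50), with sums of 36732 and 37541 in the young adult pools and 25815 and 27314 in the aged pools. *Fabp7*, with the highest intensity, had a log2 fold change of -0.62 (FDR = 0.217).

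Basal epithelial markers fell in 2 of 6 genes (median log2 fold change -0.35), with summed levels of 47896 and 48002 in the young adult pools and 36563 and 35566 in the aged pools. *Krt5*, with the highest intensity, had a log2 fold change of -0.49 (FDR = 0.216 by limma) and *Krt15* one of -0.82 (FDR = 0.178). For mature olfactory neurons, 0 of 7 markers fell and 1 rose (median 0.30), with sums of 455541 and 444417 in the young adult pools and 497632 and 505909.7 in the aged pools. *Stoml3* had a log2 fold change of 0.43 (FDR = 0.243), and *Omp*, with the highest intensity, was not called (0.15, FDR = 0.549). Of the 6 lung markers 1 fell (median -0.24), with sums of 4836 and 5001 in the young adult pools and 4834 and 4724 in the aged pools. This was *Sftpc* (-0.76, FDR = 0.193), and *Lamp3*, with the highest intensity, had a log2 fold change of 0.05.

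**Figure D5:**
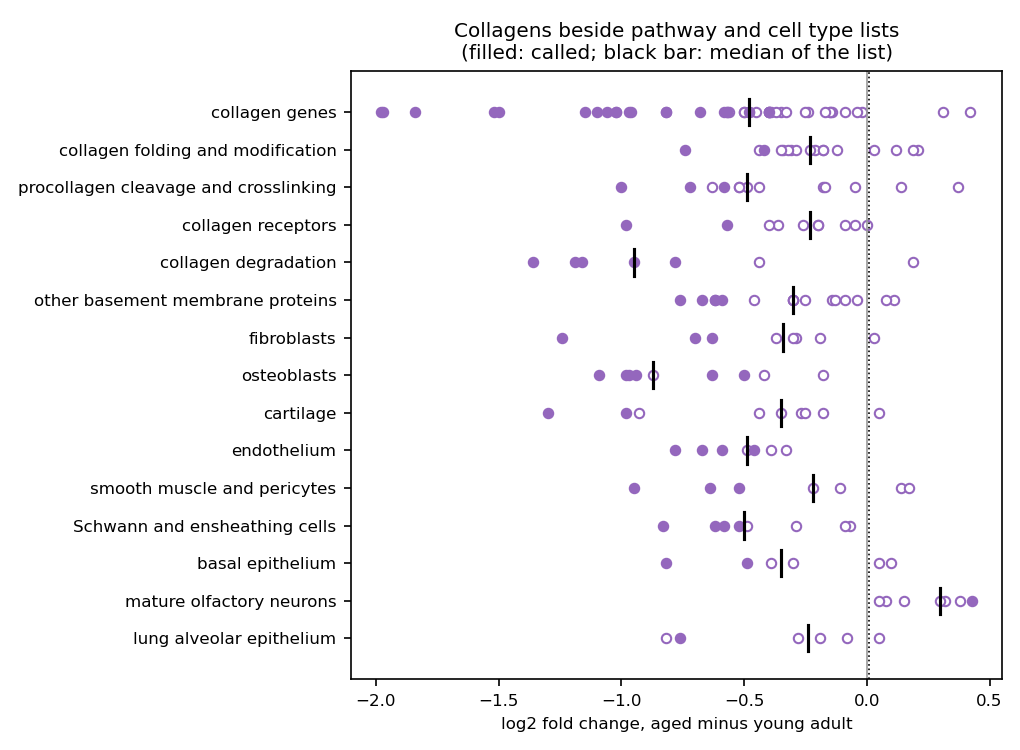
Log2 fold change, aged minus young adult, of each gene of the collagen family, of 5 lists of collagen-related genes and of 9 lists of cell type markers; filled points are called genes, black bars the medians of the lists, and the dotted line the median of all genes tested. The medians of the collagen-degrading enzymes (-0.95) and of the osteoblast markers (-0.87) lie lowest, and that of mature olfactory neurons (0.30) is the only one above 0.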

How the data were processed

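The authors read 4 Agilent one-color arrays with Feature Extraction 11.0.1.1 and deposited spot and local background intensity values with quality flags, without normalization between arrays. Here, the median spot intensity was corrected against its local background by normexp (offset 0), since the methods name no background method and the mean spot signal planned at first is not among the deposited columns. Control and outlier-flagged spots (88 to 118 non-control spots per array) were left out, spots of a probe averaged, log2 values quantile normalized, and probes of a gene averaged. Accessions named 58.3% of 56605 probes through RefSeq (GRCm38.p6), and the others kept the array's identifier. Levels are normalized intensities. Ages were compared with limma 3.58.1 (lmFit, eBayes) in R 4.3.3 over all genes, without covariates. The fit was tested on simulated data: the pass criteria of that test were rewritten after its first versions had failed, and in it a small set of genes with changes near the median size of the called collagens gave no calls, so that an uncalled gene may have changed. Called genes passed limits of 0.05 on the limma P and of 0.25 on the FDR (Benjamini-Hochberg). The number of arrays limits precision.

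Collagens were described on each array if called, if of the same type as a called one, or if their class held no called gene, and otherwise by range. From each other list, at most the gene with the highest intensity and the called gene with the largest change in each direction were named, beside markers near background. The members and lists were chosen with earlier results of these data known. The alternatives tried were other background corrections, signals and normalizations, filters, probe choices, spread models, blocks, left-out arrays and call limits.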

Additional observations from a re-analysis of the deposited data

How the results depend on the processing

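The signs of 37 of the 44 collagens, the 19 called ones among them, were the same in every listed setting, although *Col28a1*, which was not called, was at 0.03 between the arrays outside the shared slide. Those of *Col4a3*, *Col4a4*, *Col4a6*, *Col6a6*, *Col19a1*, *Col25a1* and *Col27a1*, none of them called, turned in at least 1. *Col25a1* was at 0.01 with the quantile-normalized processed signal, and *Col4a6* at 0.04 within the shared slide. Without 1 array, log2 fold changes ran from -0.30 to 0.26 for *Col4a3*, -0.43 to 0.15 for *Col4a4*, -1.15 to 0.40 for *Col6a6*, -0.87 to 0.40 for *Col19a1*, -0.24 to 0.17 for *Col25a1* and -0.21 to 0.03 for *Col27a1*.

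The number of calls moved with the handling of dim spots and of the spread, and the cause was not tested. Called lower and higher were 29 and 1 collagens (2478 and 2107 of all genes) with a normexp offset of 50; 26 and 1 (2241 and 1788) without background correction; 26 and 0 (2346 and 2030) with the quantile-normalized processed signal; 29 and 1 (3517 and 3607) with an intensity trend; and 24 and 1 (1411 and 1004) with the brightest probe per gene. Called lower were 16 collagens (826 of all genes) with 75th percentile scaling, 18 (914) with that scaling of the processed signal, 19 (1378) with cyclic loess and 19 (1060) with flagged spots kept, with 0 collagens higher in each. With the filter for probes well above background, 32 and 2 of 39 collagens were called (3707 and 3446 of 29504 genes tested). Fewer genes thus entered the adjustment. Probes that passed in the young adult pools alone, such as the dimmer one of *Col13a1*, stayed in, so these counts are description only. At an FDR below 0.1, limma left 0 collagens and 2 lower and 1 higher genes, and below 0.05 it left 0 of each, against 28 lower collagens at the P limit. Requiring a mean expression and fold change as well left 14 lower collagens, and 524 lower and 371 higher genes.

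With the replicate number as a block, 0 genes were called in either direction (1 residual degree of freedom is left). Same-numbered arrays did not deviate together (r = -0.078), and those numbered 1 share a slide. Without 1 array, 0 to 0 collagens and 0 to 0 genes were called; the lone array of an age is then assumed to vary like the others. The slide could not be fitted as a random block, since no correlation can be estimated from 3 slides of 4 arrays. As a fixed block it leaves only the shared slide.

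The collagen median was -0.39 with the offset of 50, -0.60 and -0.63 with the processed signal (75th percentile scaling and quantile), -0.57 with probes well above background or the brightest probe, -0.61 within the shared slide, and -0.59 to -0.44 without 1 array. Levels near background limit the values of *Col4a3*, *Col4a4*, *Col6a5*, *Col6a6*, *Col15a1* and *Col19a1*, of which only *Col6a5* was called.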
